A study of Mus musculus with 6 samples.

Results

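The enzymes that build and degrade glycogen were described in primary brown adipocyte cultures from WT and Ucp1-KO mice. The group comprised 9 genes of the 22466 gene symbols with a RefSeq row in the deposited table, selected by name and not by their values: Gys1, Gys2, Gbe1, Gyg, Ugp2, Pgm1, Pygb, Pygl and Ppp1r3c. They are called glycogen enzymes for short, although Ppp1r3c encodes a targeting subunit and the row named Pgm1 an enzyme mainly of pentose phosphates. Each of them had 1 RefSeq transcript, which stands for the gene. Precursor cells came from the interscapular brown fat of male mice of strain 129SvEvS1 (written 129Sv/S1 in the study's methods). The mice, either wildtype or UCP1(-/-), were aged 5 to 6 weeks. Confluent cells were induced for 2 days with isobutylmethylxanthine, indomethacin, dexamethasone, insulin, T3 and rosiglitazone. They were then differentiated in the dish with insulin, T3 and rosiglitazone for 7 days in medium with 25 mM glucose. By the study's methods the glucose was lowered at the end of differentiation, ahead of all later experiments. The 3 WT cultures (replicates 10, 11 and 12) and the 3 Ucp1-KO cultures (replicates 13, 14 and 15) shared this treatment, and the sources used here name no adrenergic stimulus for the RNA samples and no number of mice per culture. Transcript abundance is given as RPKM, the authors' read numbers divided by the length of the transcript and by the size of the library, so that levels of different genes can be set side by side.

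Glycogen is a branched polymer of glucose that cells lay down when glucose and insulin are plentiful and draw on as a rapid source of glycolytic substrate. Its synthesis starts from glucose 6-phosphate, which phosphoglucomutase turns into glucose 1-phosphate and UDP-glucose pyrophosphorylase (Ugp2) into UDP-glucose. Glycogenin (Gyg) primes the chain, glycogen synthase (Gys1 in muscle and most tissues, Gys2 in liver) extends it and the branching enzyme (Gbe1) sets the branches. Glycogen phosphorylase (Pygl first described in liver, Pygb in brain, Pygm in muscle) releases glucose 1-phosphate again. Ppp1r3c, also known as protein targeting to glycogen, anchors protein phosphatase 1 to the glycogen particle, where the phosphatase activates synthase and inactivates phosphorylase. Brown fat is known to store glycogen.

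Totals behind the RPKM values, computed from the steps of low values, were 14989604 to 17727653 reads per culture. Ucp1, the targeted gene, had 1775, 981 and 1157 RPKM in WT replicates 10, 11 and 12 and 307, 409 and 398 RPKM in Ucp1-KO replicates 13, 14 and 15, so that the genotypes did not overlap. The row covers the whole transcript, and reads of the partial RNA that the disrupted allele still gives are counted in it. Even for Ucp1 the limma adjusted p over all transcripts was 0.868, at a log2 fold change of -1.78. Markers of brown adipocytes were abundant in every culture (8 of 8 tested, summed level 30790 to 34227 RPKM). Markers of other cells were also present. The sum over preadipocyte and stromal markers ran from 904 to 2049 RPKM in WT and from 817 to 1317 RPKM in Ucp1-KO cultures (9 of 10 above the minimum abundance). Macrophage markers summed to 59.4 to 179 RPKM in WT, and to 166, 817 and 42.5 RPKM in Ucp1-KO replicates 13, 14 and 15. Endothelial markers summed to 2.30 to 28.0 RPKM over all cultures and skeletal muscle markers to 8.95 to 31.2 RPKM, with the muscle creatine kinase transcript Ckm at 0 in 3 of the 6 cultures. The part of these cells in the results below was not tested, and fewer cells of a type cannot be told apart from less RNA per cell in such bulk samples.

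All 9 glycogen enzymes were transcribed well above the minimum of 0.5 RPKM that a transcript needed as its mean over the 6 cultures to be tested. Their levels spanned from a WT mean of 167 RPKM for Gyg to 6.85 RPKM for Pgm1. By its mean over the 6 cultures, Gyg ranked 385 of the 16865 RefSeq transcripts tested, Gbe1 453, Ugp2 639, Gys1 757, Ppp1r3c 1134 and Pygl 1287. Gys2 at rank 4052, Pygb at 5819 and Pgm1 at 9472 were less abundant. Each value rested on 137 to 8026 reads, the lowest being that of Pgm1 in Ucp1-KO replicate 13 and the highest that of Gbe1 in WT replicate 12. Read numbers have counting error only and do not reflect the spread between cultures.

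**Figure D1:**
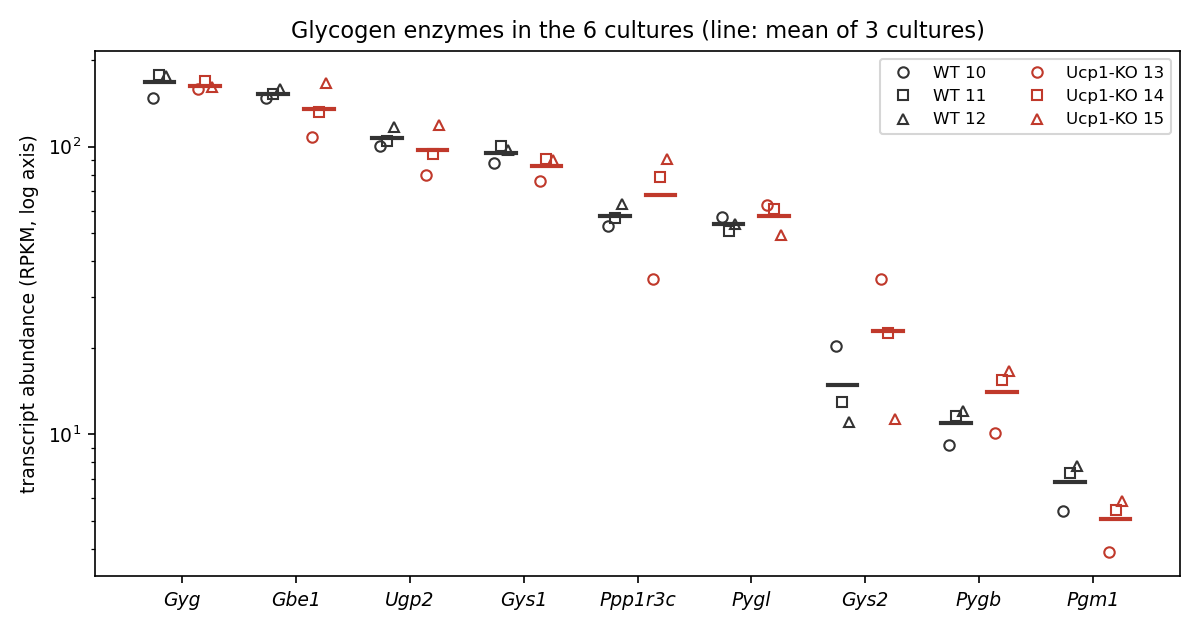
Transcript abundance of the 9 glycogen enzymes in RPKM on a log axis, with 1 symbol per culture (WT dark, Ucp1-KO red) and a line at the mean of 3 cultures. Gyg, Gbe1, Ugp2 and Gys1 lie highest, Gys2, Pygb and Pgm1 lowest, and the cultures of both genotypes overlap for every gene.

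The question of the comparison was whether ablation of Ucp1 went along with a different transcript level of any of these enzymes. Of the 9 enzymes, 0 had an adjusted p-value under 0.05 (limma on log2(RPKM + 1), Benjamini-Hochberg adjusted over 16865 transcripts), as did 0% of all transcripts tested. At an unadjusted p under 0.05 there were also 0 of the 9, against 5.54% of all transcripts, and limma-voom on the recovered reads gave 0 adjusted calls and 898 unadjusted ones over all transcripts. Without the minimum abundance, 22 of 28890 transcripts had a limma adjusted p under 0.05, none of them a glycogen enzyme. The study itself reported differential genes from DESeq2, with Ucp1 among them and none of the 9 enzymes. The genotypes overlapped for all 9 enzymes, and 11.2% of all transcripts tested did not overlap. With 9 genes, counts of 0 cannot be told apart from shares of 5.54% or 11.2%. Log2 fold changes lay between -0.37 for Pgm1 and 0.51 for Gys2, 4 of them positive and 5 negative, with a median of -0.04, beside a median of -0.0016 and 49.6% of higher transcripts over all tested. A positive value means higher abundance in Ucp1-KO cells. In exact two-sided permutation tests, whose p is at least 0.1 for groups of 3, the smallest p among the 9 enzymes was 0.3.

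Glycogen starts on glycogenin, and Gyg (chromosome 3, 20122083 to 20155117 on GRCm38) was the most abundant of the 9 transcripts. It had 148, 178 and 176 RPKM in WT replicates 10, 11 and 12, and 158, 169 and 162 RPKM in Ucp1-KO replicates 13, 14 and 15. All Ucp1-KO values fell between the lowest and the highest WT value. The means were 167 ± 16.9 and 163 ± 5.34 RPKM (SD, n = 3), giving a log2 fold change of -0.04 with a standard error of 0.10 (limma adjusted p = 0.968). Its 95% interval allowed a Ucp1-KO level of 0.823 to 1.16 times that of WT. The sign of this small difference was not stable, with 0.010 without WT replicate 11 and 0.0038 without WT replicate 12 on the log2 scale. Gyg also varied least among the 9, with a coefficient of variation of 6.98% over the 6 cultures.

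On the way to UDP-glucose, the symbol Pgm1 requires care. The row named Pgm1 in the deposited table (NM_025700, chromosome 5, 64092919 to 64128355) is the gene that RefSeq on GRCm38.p6 calls Pgm2. The gene that RefSeq calls Pgm1 is listed in the table as Pgm2 (NM_028132, chromosome 4, 99929451 to 99987294). The former encodes a phosphoglucomutase family enzyme known to act mainly on pentose phosphates, the latter the principal phosphoglucomutase of glycogen metabolism. In the table's naming, Pgm1 had 5.43, 7.34 and 7.79 RPKM in the WT cultures and 3.89, 5.46 and 5.88 RPKM in the Ucp1-KO cultures, in the order of their numbers. The lowest WT culture, replicate 10, lay below Ucp1-KO replicates 14 and 15. Its log2 fold change of -0.37 (standard error 0.18, limma unadjusted p = 0.0762, adjusted p = 0.871) was the most negative of the 9, with a 95% interval from -0.80 to 0.05. Leaving out single cultures kept it negative, between -0.51 without WT replicate 10 and -0.22 without Ucp1-KO replicate 13.

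The table's Pgm2 was far more abundant, with 221, 232 and 213 RPKM in WT against 192, 217 and 215 RPKM in Ucp1-KO cultures. This exceeded Pgm1 by 27.3-fold to 49.2-fold within single cultures, so that the chosen row made up 2.40% to 3.53% of both phosphoglucomutase transcripts in WT and 1.99% to 2.67% in Ucp1-KO cultures. Pgm2 overlapped between the genotypes as well (log2 fold change -0.10, standard error 0.09, limma adjusted p = 0.897).

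Ugp2 (chromosome 11, 21321126 to 21371267), whose product makes the UDP-glucose that synthase uses, had 101, 105 and 117 RPKM in the WT and 79.6, 94.3 and 119 RPKM in the Ucp1-KO cultures. The Ucp1-KO cultures thus held both the lowest and the highest value. The difference on the log2 scale was -0.15 with a standard error of 0.15 (limma adjusted p = 0.901).

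Gbe1, the branching enzyme gene (chromosome 16, 70313949 to 70569720), had the same arrangement of values. It had 147, 152 and 159 RPKM in WT replicates 10, 11 and 12, and 108, 132 and 166 RPKM in Ucp1-KO replicates 13, 14 and 15. The means were 153 ± 5.96 and 135 ± 29.4 RPKM (SD, n = 3), with a log2 fold change of -0.19 (standard error 0.16, limma adjusted p = 0.889). Without Ucp1-KO replicate 13 the log2 fold change was -0.04 for Gbe1 and -0.02 for Ugp2, and without Ucp1-KO replicate 15 it was -0.35 and -0.31 (limma unadjusted p = 0.0249 and 0.0426, where 5.16% of all transcripts had an unadjusted p under 0.05). Thus 2 Ucp1-KO cultures set the size of both differences in opposite ways.

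Of both synthase genes, Gys1 (chromosome 7, 45434839 to 45456617) was the main transcript in every culture. It had 87.6, 100.3 and 97.4 RPKM in WT against 75.9, 90.7 and 89.9 RPKM in Ucp1-KO cultures, and the Ucp1-KO replicates 14 and 15 lay between WT replicates 10 and 12. The log2 fold change of -0.15 had a standard error of 0.11 (limma adjusted p = 0.876), with a 95% interval that allowed a Ucp1-KO level of 0.753 to 1.07 times that of WT. It was -0.07 without Ucp1-KO replicate 13 and -0.21 without WT replicate 10. Gys2 (chromosome 6, 142422612 to 142473130) had 20.3, 12.99 and 11.1 RPKM in WT against 34.8, 22.6 and 11.3 RPKM in Ucp1-KO cultures. Here 2 Ucp1-KO cultures lay above all WT cultures and replicate 15 lay beside the lowest of them. Its log2 fold change of 0.51 was the highest of the 9, and so was its standard error of 0.40 (limma adjusted p = 0.879). The 95% interval from -0.44 to 1.45 leaves room for a Ucp1-KO level of 0.738 to 2.74 times that of WT, so that for Gys2 a sizeable difference in either direction was not detectable with 3 cultures. It ranged from 0.15, when Ucp1-KO replicate 13 was left out, to 0.92, when replicate 15 was (unadjusted p = 0.0193 and adjusted p = 0.838 in limma).

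Expressed as a share of both synthase transcripts, Gys2 made up 18.8%, 11.5% and 10.2% in WT replicates 10, 11 and 12. In Ucp1-KO replicates 13, 14 and 15 it made up 31.4%, 19.9% and 11.2%. The summed synthase level differed less between cultures, from 101 to 113 RPKM, and the culture with the least Gys1, Ucp1-KO replicate 13, had the most Gys2.

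Among the phosphorylases, Pygl (chromosome 12, 70190815 to 70227683) was predominant. It had 57.1, 50.9 and 54.0 RPKM in WT against 62.7, 60.8 and 49.4 RPKM in Ucp1-KO cultures. Both extremes were Ucp1-KO cultures, and the log2 fold change was 0.09, with 0.12 as its standard error (limma adjusted p = 0.922). It ran from 0.02 without Ucp1-KO replicate 13 to 0.19 without replicate 15, and was 0.05 without WT replicate 11 and 0.04 without Ucp1-KO replicate 14. Pygb (chromosome 2, 150786796 to 150831748) had 9.19, 11.6 and 12.1 RPKM in WT against 10.1, 15.5 and 16.7 RPKM in Ucp1-KO cultures. Here replicates 14 and 15 lay above all WT cultures, while replicate 13 lay among them (log2 fold change 0.32, standard error 0.20, limma adjusted p = 0.876). It was 0.19 without Ucp1-KO replicate 15 and 0.20 without WT replicate 10. Without replicate 13 the value was 0.52 (unadjusted p = 0.00899 and adjusted p = 0.473 in limma), in a comparison in which 9.14% of all transcripts had an unadjusted p under 0.05. Pygm, the muscle phosphorylase, was near absent with 0.102 to 0.258 RPKM or 5 to 12 reads per culture, and was not abundant enough to be tested.

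Pygl accounted for 82.9% ± 2.64 of the phosphorylase transcripts in WT and 80.0% ± 5.73 in Ucp1-KO cells (SD, n = 3), and Pygb for 16.9% ± 2.62 and 19.7% ± 5.68. The share of Pygb was highest in Ucp1-KO replicate 15 with 25.1% and lowest in Ucp1-KO replicate 13 with 13.8%. In both pairs of genes, the isoform first described in liver thus held its largest or nearly its largest share in Ucp1-KO replicate 13 and a low share in replicate 15. For phosphorylases, WT replicate 10 with 85.9% of Pygl stood next to Ucp1-KO replicate 13 with 85.9%.

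**Figure D2:**
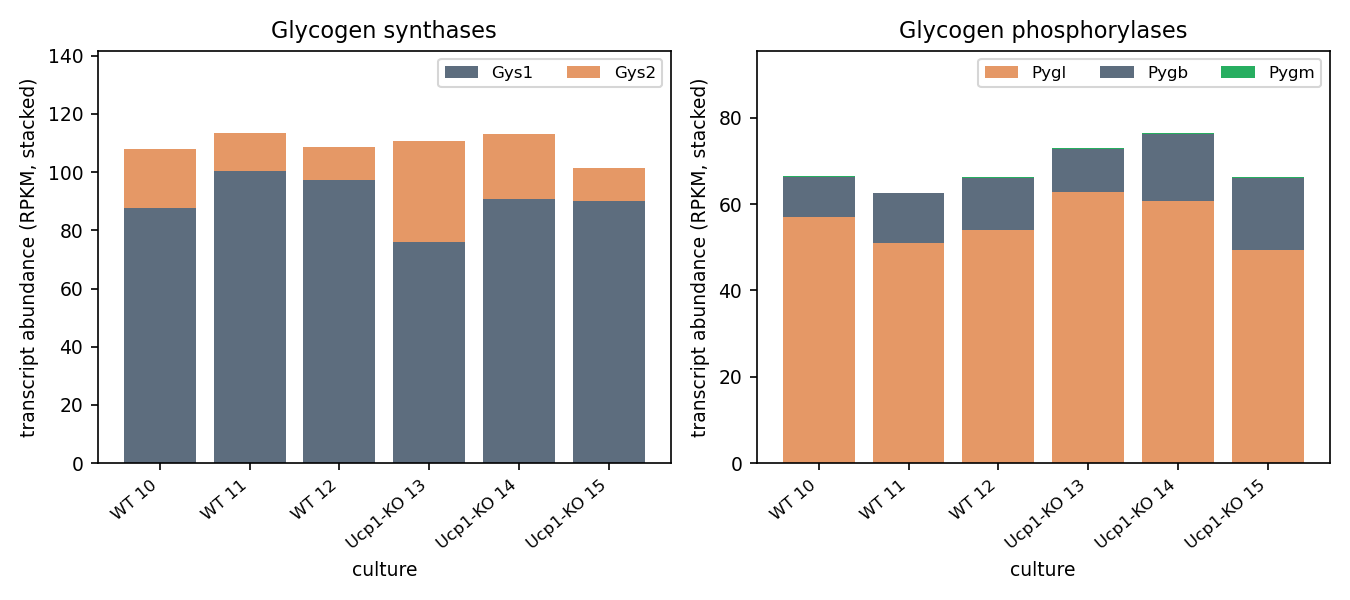
Stacked RPKM of the glycogen synthase transcripts (left) and the glycogen phosphorylase transcripts (right), 1 bar per culture. Gys1 and Pygl make up most of each bar, Gys2 is tallest in Ucp1-KO replicate 13, and Pygm is barely visible at no more than 0.258 RPKM.

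Set against each other, the phosphorylase sum amounted to 61.5, 55.2 and 61.1 RPKM per 100 RPKM of synthase in WT replicates 10, 11 and 12, and to 66.0, 67.5 and 65.4 in Ucp1-KO replicates 13, 14 and 15. All Ucp1-KO cultures lay above all WT cultures, with means of 66.3 ± 1.05 and 59.3 ± 3.55 (SD, n = 3). The difference of 7.01 was between 4.97 and 8.14 with single cultures left out. This ratio was not among the planned results and was looked at after the values of its parts were known, so it is given without a test. The range with cultures left out is no test of it either. Of all transcripts tested, 11.2% also did not overlap between the genotypes. Neither sum by itself separated the genotypes, with 66.4, 62.6 and 66.3 RPKM of phosphorylase in WT and 73.0, 76.4 and 66.3 RPKM in Ucp1-KO.

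Ppp1r3c (chromosome 19, 36731731 to 36736604), the glycogen-targeting subunit, had 53.1, 56.5 and 63.1 RPKM in WT replicates 10, 11 and 12, and 34.7, 78.4 and 90.3 RPKM in Ucp1-KO replicates 13, 14 and 15. WT cultures were close to each other, whereas the Ucp1-KO cultures spread to both sides of them, 1 below and 2 above. The means were 57.6 ± 5.09 and 67.8 ± 29.3 RPKM (SD, n = 3), with a log2 fold change of 0.13 (standard error 0.34, limma adjusted p = 0.965). Its sign depended on single cultures. The log2 fold change was -0.03 without Ucp1-KO replicate 14, -0.13 without replicate 15 and 0.54 without replicate 13 (unadjusted p = 0.00364 and adjusted p = 0.461 in limma). The related subunit Ppp1r3b, in contrast, had 53.2 to 59.1 RPKM in all 6 cultures.

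With 1 culture left out at a time, 0 of the 9 enzymes had a limma adjusted p under 0.05, and the number with an unadjusted p under 0.05 depended on the culture. It was 1 without WT replicate 10 (Pgm1, where 10.4% of all transcripts had such a p), and 0 without WT replicate 11 (1.88% of all), WT replicate 12 (2.61%) or Ucp1-KO replicate 14 (3.57%). It was 2 without Ucp1-KO replicate 13 (Pygb and Ppp1r3c, 9.14% of all) and 3 without Ucp1-KO replicate 15 (Gys2, Gbe1 and Ugp2, 5.16% of all).

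**Figure D3:**
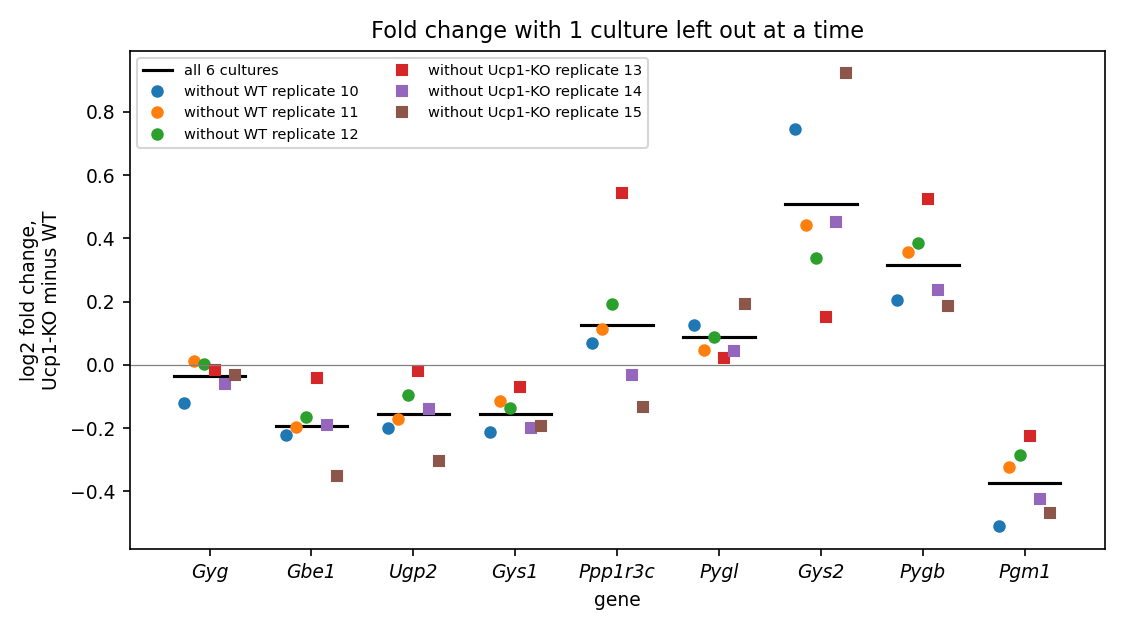
Log2 fold change of each enzyme (Ucp1-KO minus WT) with all 6 cultures (black line) and with 1 culture left out at a time (circles, WT culture left out, squares, Ucp1-KO culture left out). Points for Ucp1-KO replicates 13 and 15 lie farthest from the line for Gbe1, Ugp2, Ppp1r3c and Gys2, and on opposite sides of it.

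Differences between cultures of the same genotype were thus larger than those between the genotypes for several enzymes. The coefficient of variation over the 6 cultures takes in the difference between the genotypes too, so it does not measure the spread within a genotype alone. It was 48.7% for Gys2 and 31.3% for Ppp1r3c, against a median of 11.8% over the 10319 transcripts that reached 5 RPKM on average. Of these transcripts, 1.86% and 6.997% varied more, and the limit of 5 RPKM was set after the data were seen. For Pgm1 and Pygb the coefficient was 23.8% and 23.7%. Gys1 and Pygl varied less than the median, with 9.48% and 9.61%. The standard deviation was larger in Ucp1-KO than in WT cultures for 7 of the 9 enzymes, and for 59.4% of all transcripts tested.

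Ucp1-KO replicate 13 stood out among the cultures. It had the lowest value of Gys1, Gbe1, Ugp2, Pgm1 and Ppp1r3c and the highest of Gys2 and Pygl, 5 and 2 of the 9 enzymes. Over all transcripts tested, this culture was the lowest for 24.5% and the highest for 17.6%. The median deviation of the 9 enzymes from their mean over the 6 cultures, regardless of sign, was 0.35 on the log2 scale in this culture, against 0.14 for all transcripts. In Ucp1-KO replicate 15, which had the highest Gbe1, Ugp2, Pygb and Ppp1r3c, it was 0.22 against 0.15. In the other 4 cultures it lay between 0.09 and 0.11. Of the 8 brown adipocyte markers, 4 were highest in this culture (Elovl3, Adipoq, Plin1 and Lipe, at 225, 1714, 456 and 523 RPKM) and 2 lowest (Ucp1 and Cox7a1, at 307 and 507 RPKM). Their sum of 30790 RPKM was the lowest of the 6 cultures, but this rank rested on Ucp1, the targeted gene. Without Ucp1 it was 30483 RPKM, above the 30191 and 29923 RPKM of WT replicates 11 and 12. Of the 10 skeletal muscle markers, 4 reached the minimum abundance. In replicate 13, 6 of the 10 were highest (Acta1, Myl1, Tnnt3 and Myog at 8.90, 5.48, 1.99 and 1.21 RPKM, and Myh1 and Myh2 at 0.432 and 0.0509 RPKM). All of these but Acta1 were next highest in replicate 15, with Tnnt3, Myog and Myh1 at 1.34, 0.766 and 0.299 RPKM. The remaining 4 markers were not highest in replicate 13, among them the abundant Mb, at 7.04 RPKM in it and 20.1 RPKM in replicate 15, and Ckm at 0. The sum of the list was 25.2 RPKM, below the 31.2 RPKM of replicate 15. Its sums of stromal and macrophage markers, 1317 and 166 RPKM, lay within the range of the other cultures. The part of these differences in the levels of the glycogen enzymes was not tested.

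**Figure D4:**
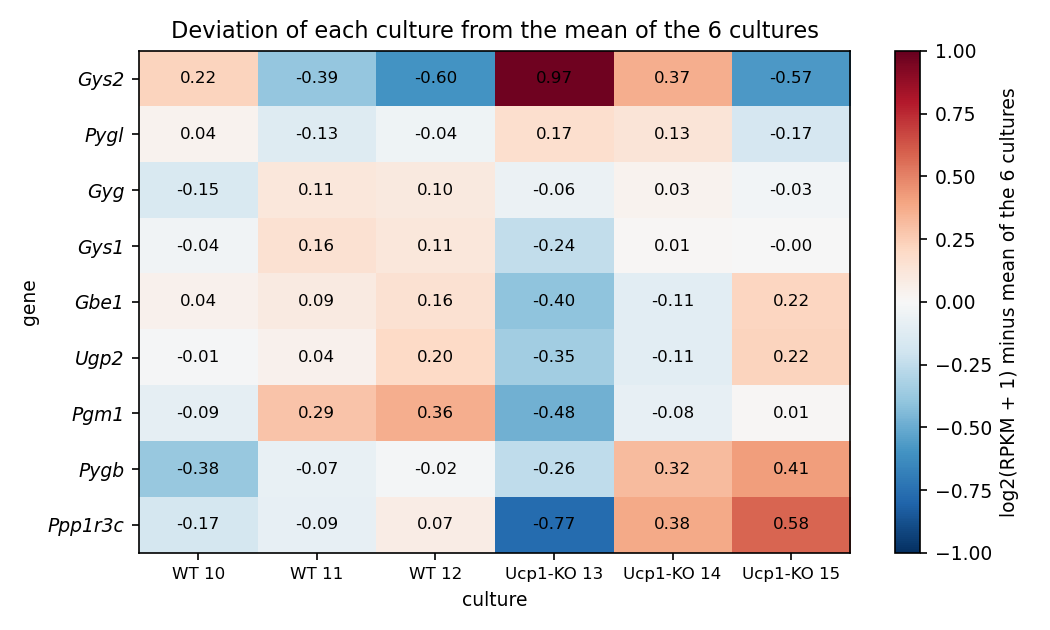
Deviation of each culture from the mean of the 6 cultures, on the log2(RPKM + 1) scale, for the 9 enzymes (rows) and the 6 cultures (columns), red above and blue below the mean. The column of Ucp1-KO replicate 13 is blue for Gys1, Gbe1, Ugp2, Pgm1, Pygb, Ppp1r3c and, faintly, Gyg, and red for Gys2 and Pygl, with -0.77 for Ppp1r3c and 0.97 for Gys2.

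To set enzymes with opposite orders of the Ucp1-KO cultures beside their regulatory sequence, the 250 bases before the RefSeq start site (GRCm38.p6) were read for the genes on record, 8 of the 9 enzymes (all but Gys2) with 9 start sites, as Ugp2 has 2. Those of 4 genes are shown, picked after their values were seen as 3 that were lowest in replicate 13 and 1 that was highest there, with capitals marking ACGTG on either strand, the core shared by hypoxia response elements and by the E-box CACGTG. Gbe1 and Ugp2 were lowest in replicate 13 and highest in replicate 15. Ppp1r3c followed the same order, with the widest range of these 4 genes as a fold (2.60-fold over the 6 cultures). Pygl was highest in replicate 13 and lowest in replicate 15.
Gbe1, chr16:70313699-70313948, forward strand: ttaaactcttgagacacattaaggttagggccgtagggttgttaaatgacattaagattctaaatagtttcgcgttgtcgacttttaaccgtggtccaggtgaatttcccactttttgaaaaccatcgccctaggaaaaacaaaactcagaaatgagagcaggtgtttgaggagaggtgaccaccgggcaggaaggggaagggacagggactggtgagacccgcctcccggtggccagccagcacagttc
Ugp2, chr11:21371268-21371517, reverse strand: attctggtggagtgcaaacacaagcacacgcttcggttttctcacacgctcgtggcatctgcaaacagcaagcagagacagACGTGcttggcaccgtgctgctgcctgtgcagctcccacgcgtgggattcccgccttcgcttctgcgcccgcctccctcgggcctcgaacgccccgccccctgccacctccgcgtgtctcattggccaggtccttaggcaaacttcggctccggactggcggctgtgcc
Ppp1r3c, chr19:36736605-36736854, reverse strand: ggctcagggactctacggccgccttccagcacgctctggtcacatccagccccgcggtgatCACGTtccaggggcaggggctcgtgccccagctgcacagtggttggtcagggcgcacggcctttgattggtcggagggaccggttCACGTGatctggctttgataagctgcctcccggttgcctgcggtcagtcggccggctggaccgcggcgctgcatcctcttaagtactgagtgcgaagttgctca
Pygl, chr12:70227684-70227933, reverse strand: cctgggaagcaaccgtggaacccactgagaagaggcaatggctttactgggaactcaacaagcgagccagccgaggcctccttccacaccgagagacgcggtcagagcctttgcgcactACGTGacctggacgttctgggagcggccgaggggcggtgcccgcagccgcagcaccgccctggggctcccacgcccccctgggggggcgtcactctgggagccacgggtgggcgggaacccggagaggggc

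Ppp1r3c held 3 matches to ACGTG, at 189, 104 and 103 bases before the start, the last pair being both strands of 1 E-box CACGTG. Pygl held 1 match, 131 bases before the start. Ugp2 held 1 match, 169 bases before the start shown, and no match before its other start (chr11:21370630-21370879). Gbe1 had no match in this window. Of the 9 start sites, 5 held ACGTG and 1 held CACGTG, against 16.6% and 6.02% of the 32851 windows of the same length in the RefSeq promoter table. The G+C content was 48.8% in the window of Gbe1 and 59.6% to 73.6% in the others, with a median of 52.4% over all windows. The shares over all windows were not matched for G+C content, so they are no like background for these motif counts. Ugp2 enters the counts with 2 windows. The other letters searched on both strands were the GC box GGGCGG in 6 of 9, against 32.7% of all windows, CCAAT in 4 of 9, against 33.8%, TGACG, part of the cAMP response element, in 2 of 9, against 17.8%, and TATAAA in 0 of 9, against 12.4%. Pygl and Ppp1r3c both held ACGTG and had opposite orders of the Ucp1-KO cultures. TGACG can overlap ACGTG by 3 letters. A match describes letters in the window and no binding.

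Beyond the 9 enzymes, 33 further genes of glycogen metabolism were listed, of which 28 were abundant enough to be tested. Of these 0 had a limma adjusted p under 0.05, 2 had an unadjusted p under 0.05 and 3 did not overlap between the genotypes, with 11 positive and 17 negative fold changes and a median log2 fold change of -0.02. The 3 without overlap, all higher in Ucp1-KO cells, were Phka2, Ppp1r3d and Nhlrc1. Phka2, which encodes the liver-type regulatory α-subunit of phosphorylase kinase, had 5.11, 4.15 and 4.51 RPKM in WT against 6.14, 5.79 and 6.01 RPKM in Ucp1-KO cultures (log2 fold change 0.32, standard error 0.10, limma unadjusted p = 0.0169, adjusted p = 0.868). Ppp1r3d, another glycogen-targeting subunit of protein phosphatase 1, had 15.04, 13.3 and 12.8 RPKM against 17.2, 16.9 and 15.8 RPKM (log2 fold change 0.26, standard error 0.09, limma unadjusted p = 0.0275, adjusted p = 0.868). Nhlrc1, the gene of the ubiquitin ligase malin, had 2.40, 2.72 and 2.70 RPKM against 2.78, 3.19 and 2.94 RPKM (log2 fold change 0.14, standard error 0.10, limma adjusted p = 0.878). Over all transcripts, 2.3% had an unadjusted p under 0.05 and a higher level in Ucp1-KO cells, and 6.04% lay higher without overlap, against 3.24% and 5.15% on the lower side.

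On the side of breakdown, Gaa, which degrades glycogen in lysosomes, had 35.7 ± 6.76 and 30.7 ± 1.10 RPKM, and Phkb, the β-subunit of phosphorylase kinase, 12.7 ± 0.891 and 13.5 ± 1.29 RPKM (SD, n = 3 each). Glycogen synthase kinase 3, which inactivates synthase, was represented by Gsk3a with 40.05 ± 3.65 and 39.6 ± 1.78 RPKM and Gsk3b with 13.4 ± 1.21 and 12.1 ± 0.781 RPKM (SD, n = 3 each). Hexokinase 2 (Hk2), which supplies glucose 6-phosphate, had 31.0 ± 5.93 and 33.0 ± 4.11 RPKM (SD, n = 3). Hk1, the other hexokinase listed and named here after its values were seen, had 31.4 ± 6.71 and 22.5 ± 4.08 RPKM (SD, n = 3), with a log2 fold change of -0.46 and a standard error of 0.19 (unadjusted p = 0.0508 and adjusted p = 0.868 in limma). All of these overlapped between the genotypes. Stbd1, whose product binds glycogen at membranes, had 8.03, 17.0 and 18.8 RPKM in WT against 3.87, 9.645 and 17.3 RPKM in Ucp1-KO cultures. Its lowest value was again that of replicate 13, and its log2 fold change of -0.59 came with a standard error of 0.51 (limma adjusted p = 0.893).

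**Figure D5:**
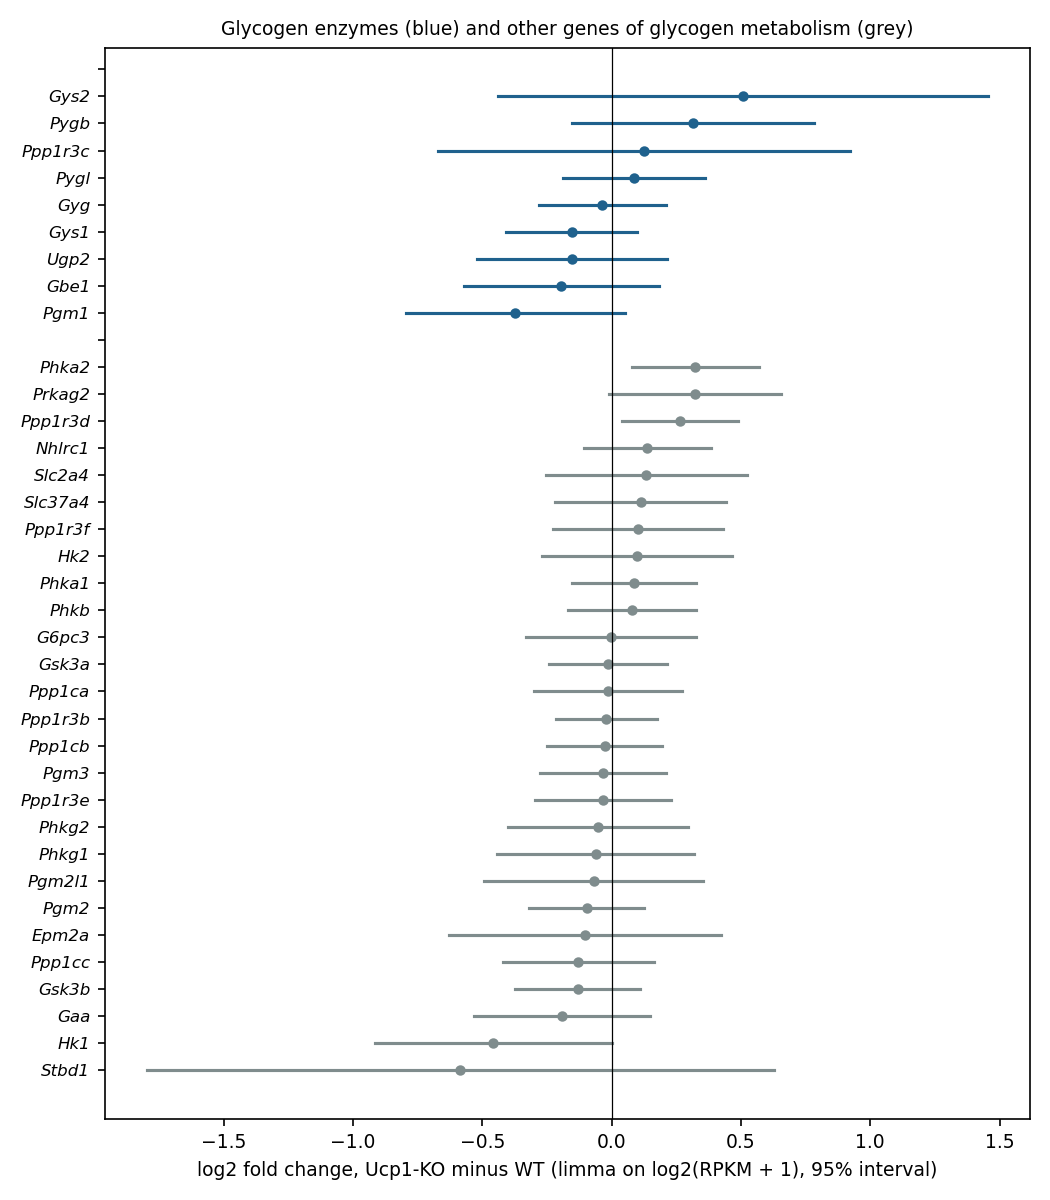
Log2 fold change (Ucp1-KO minus WT, points) with its 95% interval (lines) from limma on log2(RPKM + 1), for the 9 glycogen enzymes in blue and the further genes tested in grey. All blue intervals include 0, the grey intervals of Phka2 and Ppp1r3d do not, and 0 of these genes had an adjusted p under 0.05.

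The 5 listed genes below the minimum abundance were Pygm, Pgm5, Ppp1r3a, Ppp1r3g and Prkag3. Ppp1r3g had 8, 14 and 9 reads in WT and 7, 5 and 0 reads in Ucp1-KO cultures, and Prkag3 had 4, 3 and 5 against 9, 7 and 5 reads. Their RPKM values did not overlap between the genotypes, but at these read numbers a difference was not detectable.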

How the data were processed

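The authors sequenced single reads of 50 bases from 6 cultures, mapped them to the mouse genome (NCBI build 38), counted unique hits per known transcript with Genomatix and deposited the result as RPKM. Sample labels named the genotype and replicate number, and all 6 value columns were matched by title. Of the 168326 rows, the 28890 RefSeq transcripts were used, and the 16865 with a mean of at least 0.5 RPKM (12259 genes) entered a limma fit (version 3.58.1, R 4.3.3, empirical Bayes with an intensity trend, log2(RPKM + 1), no covariates, Benjamini-Hochberg, threshold 0.05). The 1 RPKM added makes fold changes of rare transcripts smaller. The study's own test needs reads, so library totals were computed from the RPKM steps of Ensembl transcripts with their GENCODE M21 lengths (94.1% to 94.3% of values whole within 0.05 reads), and RefSeq lengths as those that made the values of all cultures whole reads (16865 of 16865). These reads entered limma-voom as an alternative. Intervals and read numbers cover counting error or the spread of these cultures only. The read recovery and the fit were tested on simulated data. RefSeq gene coordinates and promoters are on GRCm38.p6. Protein sequences were not used here. Single values were compared by exact permutation tests. Tables and plots were made in Python 3.11.15 (scipy 1.17.1, pandas 2.3.3, numpy 2.4.6, matplotlib 3.10.9).

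The ratio of phosphorylase to synthase was chosen after the data were seen. The 9 enzymes and the lists of further genes and markers were chosen with earlier results of these data known. Named are all 9 enzymes, Ucp1, and of the further genes those without overlap, those with an unadjusted p under 0.05 and others set by name (Pygm, Pgm2, Gaa, Gsk3a, Gsk3b, Ppp1r3b, Phkb, Hk2 and Stbd1). Outside this rule, Hk1 and the listed genes under the minimum (Pgm5 and Ppp1r3a among them) were named after their values were seen. A gene of the list is counted but not reported here. Alternatives were a constant of 0.1 RPKM, a minimum of 1 RPKM or none, 1 transcript per gene, all annotations, summed rows, median-of-ratios scaling, limma-voom and leaving out each culture.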

Additional observations from a re-analysis of the deposited data

How the results depend on the processing

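Of 126 fold changes of the 9 enzymes under 14 alternatives each, 45 equal the reported ones, since 5 alternatives (no minimum, a minimum of 1 RPKM, 1 transcript per gene, all annotations, summed rows) change only which other transcripts are tested. Of the other 81, 77 kept their direction. The smallest limma adjusted p under any alternative was 0.442. The other 4 changed sign with a culture left out, namely Gyg (0.010 without WT replicate 11, 0.0038 without WT replicate 12) and Ppp1r3c (-0.03 without Ucp1-KO replicate 14, -0.13 without Ucp1-KO replicate 15). With each culture left out in turn, Gyg ranged from -0.12 to 0.010 and Ppp1r3c from -0.13 to 0.54. The cause was not tested. The median log2 fold change of the 9 enzymes was between -0.13 and 0.010 with single cultures left out, and 3 to 5 of the 9 were higher in Ucp1-KO cells. Without a minimum abundance, 22 of 28890 RefSeq transcripts had a limma adjusted p under 0.05, where the other alternatives gave 0. None of the 22 was a glycogen enzyme or one of the 33 further genes. Unadjusted p-values under 0.05 numbered 1456 without a minimum, 5193 of 95358 over all annotations and 317 to 1754 with single cultures left out, against 935. No paired analysis was possible because the genotypes share no replicate number. With 3 cultures per genotype, precision was limited by their spread, and the part of sequencing depth was not tested.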

Other observations

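The deposited table lists the 9 enzymes under other annotations too, with 56 further rows, none of which enters the comparison above. Their reads overlap with those of the RefSeq rows, so they are no independent measurements. Means over the 6 cultures lay between 0.284 and 176 RPKM. For 11.2% of all RefSeq transcripts tested, the genotypes did not overlap. The 56 rows share reads and were not filtered by abundance, so this share is no like background for them. Of the 56 rows, 24 had a higher and 32 a lower mean in Ucp1-KO cells, and the genotypes did not overlap for 3 of them. These were a Gys1 transcript (ENSMUST00000124343, 79.6, 84.0 and 83.9 RPKM in WT and 69.9, 78.3 and 78.5 RPKM in Ucp1-KO cultures) and 2 Pygb transcripts (AK028744, 1.33, 1.21 and 1.30 against 1.51, 1.92 and 1.92 RPKM, and ENSMUST00000154366, 5.42, 5.64 and 5.65 against 6.01, 11.2 and 7.90 RPKM). They were picked after their values were seen and were not tested.

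Transcripts of 1 gene differed widely in level. Gbe1 was listed with means from 32.9 to 176 RPKM in its 6 Ensembl rows, and Pygl with 20.8 and 35.2 RPKM in its 2 Ensembl rows against 55.8 RPKM in the RefSeq row. For Ugp2, 2 rows (AK037340 and AK134031) were near 0, with 0.284 and 0.294 RPKM, while its 3 Ensembl rows had 103 to 137 RPKM. Gys2 had 2 further rows with 20.6 and 20.7 RPKM, in which Ucp1-KO replicate 13 was again the highest culture with 38.2 and 38.4 RPKM.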
